A study of Rousettus aegyptiacus with 32 samples.

Results

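The 100 transcript models described here were those with the most cortex-enriched RNA in the brain of the Egyptian fruit bat, Rousettus aegyptiacus. They are 100 of 55974 models quantified, and were drawn from the 55886 models shorter than 800000 bases. A transcript model is a predicted RNA to which sequencing reads were assigned. Each library's reads were scaled to a total of 1000000 (CPM). For each model, 1 was added to the lowest CPM among the 8 cortical libraries and to the highest CPM among the 4 striatal libraries. The first was divided by the second, and the 100 models with the highest ratio were kept. The models were thus selected on their cortical and striatal levels, so the difference between these tissues is given here as a description. A fit of cortex against striatum called 95 of the 100 higher in cortex (edgeR, adjusted p under 0.05), against 2.57% of all models tested, which repeats the choice and from which nothing is read.

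The study, on convergent evolution with vocal learning, sequenced poly(A) RNA from bulk tissue of 6 brain regions of an adult female (bat 6) and an adult male (bat 7). The cortical regions were secondary auditory cortex (2A), primary motor cortex in an orofacial part (ofM1) and a wing part (wM1), and premotor cortex (PreM). The striatal regions were the caudate and the putamen. Each region had 1 library per animal, 12 in all, so sex and animal cannot be told apart, and no group carried an allele or a treatment. The open chromatin libraries of the study came from other animals and are not analysed here.

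The cerebral cortex holds mostly excitatory projection neurons that release glutamate, with fewer inhibitory interneurons. The striatum receives input from the cortex, and its principal cells are inhibitory spiny projection neurons. A comparison of bulk tissue from these regions thus sets unlike mixtures of cells beside each other, and a different share of a cell type cannot be told apart from a different amount of RNA per cell. The files do not pair the model numbers with genes, and 0 of the identifiers were found in the RefSeq gene table for the mRouAeg1.p assembly. The models are therefore named by number, nothing is said of their functions, and the labelled regions could not be checked against marker genes.

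Library depth ran from 40790810 to 76023989 estimated reads. The 100 models together held 0.812% to 1.09% of the reads in the cortical libraries and 0.0679% to 0.0848% in the striatal libraries. Their mean level ran from 4.57 to 905 CPM in cortex, with a median over the models of 48.8 CPM. In striatum it ran from 0 to 80.5 CPM, with a median of 2.47 CPM. No read was assigned to 14 of the models in any striatal library, and 30 stayed under 1 CPM in all 4. Another 27 passed 10 CPM in at least 1 striatal library, so a high ratio did not require silence in striatum. The heat map of all models by library shows these low but unequal striatal levels beside the cortical ones.

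**Figure D1:**
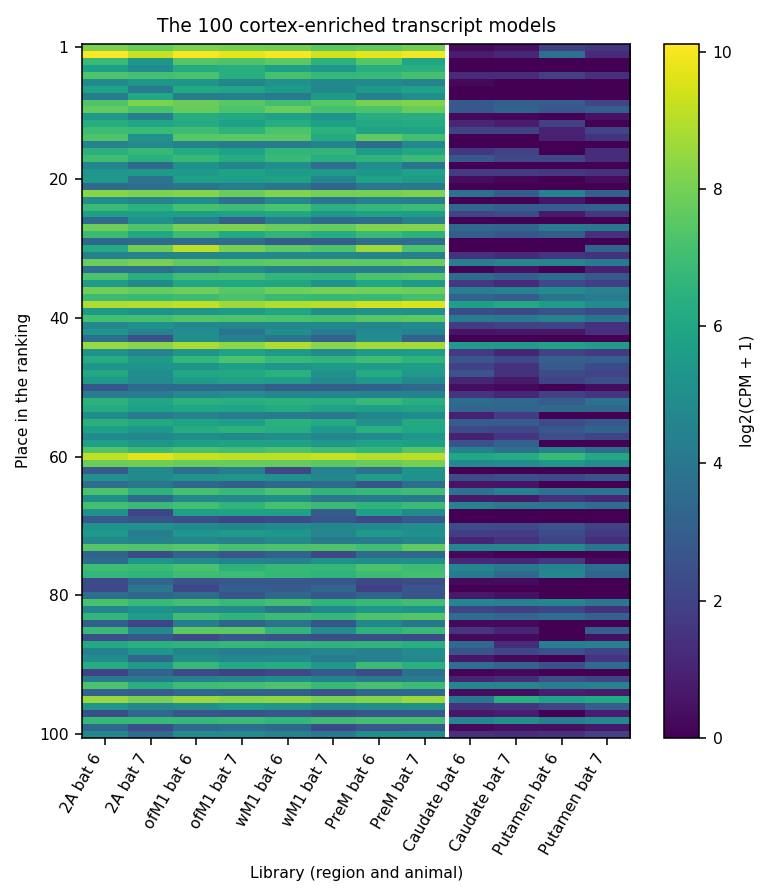
The level of each of the 100 models, in ranked order from top to bottom, in the 12 libraries from left to right, as log2(CPM + 1) by colour. The 8 cortical libraries lie left of the white line and the 4 striatal libraries right of it; rows that stay dark at the right are models with little or no RNA in striatum, and 27 models passed 10 CPM in some striatal library.

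The ratios fell quickly from the top of the ranking. The highest was 49.3, the median 4.76 and the lowest 3.04, with 20 models at 10 or more and 51 under 5. The border is not a natural gap: the models in places 98, 99 and 100 (mRNA18728, mRNA6888 and mRNA57214) had ratios of 3.09, 3.09 and 3.04. Just outside it, mRNA40566, mRNA37246 and mRNA54989 had 3.03, 3.02 and 3.00. Among the 22501 models with a mean of at least 1 CPM that met the length limit, 5.01% had their lowest cortical library above their highest striatal one, a condition all 100 models meet through the ranking.

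mRNA28322 had the highest ratio. In bat 6 and bat 7 it was at 269.5 and 213 CPM in 2A, 268 and 257 CPM in ofM1, 243 and 184 CPM in wM1, and 199 and 240.2 CPM in PreM. In caudate it was at 0.205 and 0.399 CPM, and in putamen at 2.76 and 2.12 CPM. All 8 cortical libraries lay within 1.46-fold of each other, the cortical mean was 234 ± 32.0 CPM (SD, n = 8) and the striatal mean 1.37 ± 1.27 CPM (SD, n = 4). Cortical areas overlapped between animals, whereas both caudate libraries lay below both putamen libraries.

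mRNA17785, in place 2, held the most reads of the 100 models in cortex. Its levels in bat 6 and bat 7 were 1110.4 and 628 CPM in 2A, 1034 and 850.1 CPM in ofM1, 1027 and 715 CPM in wM1, and 857 and 1019 CPM in PreM. Per length it was also abundant, at a cortical mean of 987 TPM, the deposited unit that corrects for length and depth. It stood at 0.694 and 1.14 CPM in caudate and at 11.9 and 1.37 CPM in putamen, so the putamen of bat 6 stood apart from the other 3 striatal libraries.

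mRNA54137 and mRNA27167, in places 3 and 4, had no read in any striatal library. For mRNA27167 the bats' values were 51.3 and 29.2 CPM in 2A, 74.8 and 82.4 CPM in ofM1, 51.9 and 38.97 CPM in wM1, and 77.4 and 80.2 CPM in PreM. Set against a floor of 3 reads per striatal library, cortex was at least 1102-fold higher, a bound for this single model that covers counting error only. The next number, mRNA27168, is longer (19143 beside 14158 bases) and had means of 67.6 CPM in cortex and 45.6 CPM in striatum. Whether reads were divided between these models was not tested. The 4 libraries of ofM1 and PreM all lay above the 4 of 2A and wM1. mRNA54137 ranged more widely, from 39.8 CPM in 2A of bat 7 to 190 CPM in wM1 of bat 6, and its neighbours are described below.

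mRNA40488, in place 5, was the longest of the 100 models at 507318 bases. It ranged from 82.0 CPM in ofM1 of bat 7 to 160 CPM in 2A of bat 6, against 1.38 to 2.77 CPM in striatum. Its cortical mean was 129 CPM but 1.03 TPM, far below the 88.5 TPM of mRNA28322, so its place by reads and its level per length were far apart. By reads, the models next to mRNA17785 were mRNA57126 and mRNA7740, with cortical means of 604 and 561 CPM and striatal means of 80.5 and 48.9 CPM. Per length they were far apart, at 275 and 10.2 TPM in cortex. TPM divides by the length of the model as deposited. Whether that length is that of the RNA itself was not tested, so a low TPM need not mean little RNA.

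**Figure D2:**
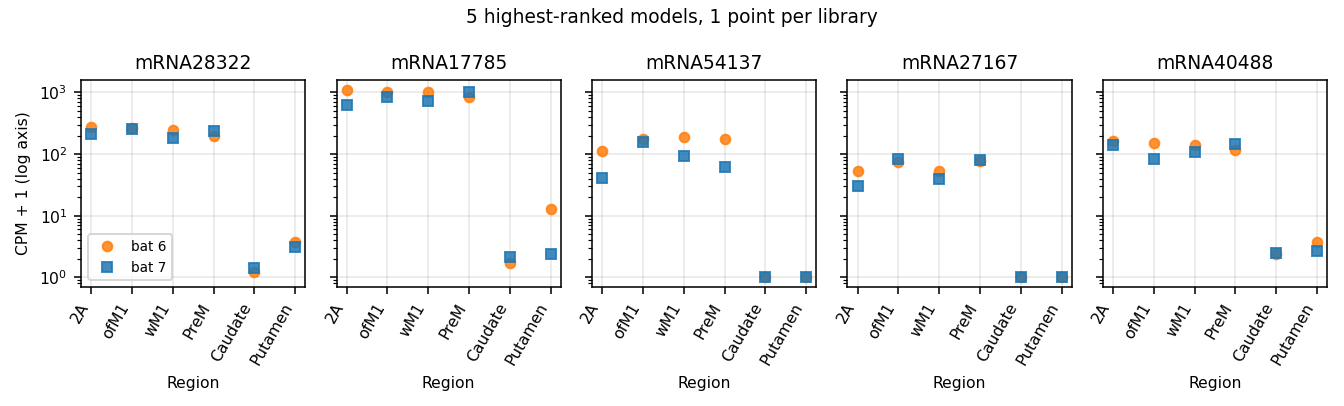
The 5 highest-ranked models, 1 panel each, with CPM + 1 on a log axis for the 6 regions; circles are bat 6 and squares bat 7. The cortical points stay far above the striatal ones in both animals, mRNA54137 and mRNA27167 lie at the floor of 1 (no read) in striatum, and mRNA17785 is raised in the putamen of bat 6.

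Model length, which the ranking used only through its upper limit, spanned 435 to 507318 bases with a median of 16879. The median over all models was 18021.5 bases, and 18921 over the 22554 with a mean of at least 1 CPM. Lengths over 100 kb were found in 20 of the 100, against 11.96% of that expressed background, and lengths under 2 kb in 12, against 7.70%. Over all models the shares were 10.9% and 12.1%, so the share under 2 kb was above that of the expressed models but equal to that of all. This is a description, not a test.

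Levels across the cortical libraries were somewhat more even than those of other models. The highest cortical library exceeded the lowest by a median of 1.96-fold over the 100 models, and by 2.06-fold over 13401 models with at least the same cortical mean and a read in all 8 libraries. A range under 2-fold was found for 51 of the 100, against 39.7% of 16959 models of at least 1 CPM with a read in every cortical library. That background takes in models at lower levels than the 100, whose cortical means start at 4.57 CPM. Shares at a matched level were not computed. The ranking by the lowest cortical library itself favours even models. The most even were mRNA18728, mRNA680 and mRNA29301. mRNA18728 spanned only 102.8 CPM in wM1 of bat 6 to 136 CPM in PreM of bat 7, a 1.33-fold range.

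A minority was uneven: 8 models exceeded 5-fold between cortical libraries, against 14.1% of those 16959 models. They were led by mRNA28429, mRNA12737 and mRNA32830. mRNA28429 had 33.9 and 3.15 CPM in 2A of bat 6 and bat 7, 53.6 and 55.2 CPM in ofM1, 54.5 and 7.02 CPM in wM1, and 52.9 and 26.7 CPM in PreM, with no read in striatum. It was lowest in 2A in both animals, and its 17.5-fold range ran from 2A to ofM1 of bat 7, with wM1 of bat 7 also low. mRNA12737 ran the other way between animals: bat 7 was above bat 6 in every cortical area, with 27.6 against 6.56 CPM in 2A, 19.2 against 11.97 CPM in ofM1, 21.7 against 3.42 CPM in wM1 and 36.3 against 13.1 CPM in PreM. mRNA32830 was highest in ofM1, at 555 and 270.0 CPM, and lowest in 2A of bat 6 at 71.0 CPM, while 2A of bat 7 had 245 CPM.

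Of the 8 uneven models, 5 had their lowest cortical value in 2A of bat 7. Across all 100, 2A of bat 7 was the lowest in 35, against 36.7% of the same 16959 models, a share near the background. The wM1 library of bat 7 was the lowest in 20, against 9.99%. Those 2 libraries were together the lowest pair for 37 models, against 24.5%.

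Within areas, the animals differed. Bat 7 was above bat 6 for 31 of the 100 models in 2A, 36 in ofM1, 21 in wM1 and 64 in PreM. Among all models of at least 1 CPM the shares above were 36.5%, 54.2%, 41.3% and 44.9%, so 2A was near its background while ofM1 and wM1 lay under theirs and PreM above. The median log2 differences of CPM + 1, bat 7 minus bat 6, were -0.28 in 2A, -0.11 in ofM1, -0.36 in wM1 and 0.09 in PreM. Over all models of at least 1 CPM the medians were -0.19, 0.05, -0.05 and 0.00, and these differences from the background were not tested. With 1 library per area and animal, the animal, its sex and the dissection cannot be told apart.

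The libraries ordered the 100 models alike within each tissue. Spearman correlations over the models ran from 0.846 to 0.979 for the 28 pairs of cortical libraries, from 0.851 to 0.974 for the 6 striatal pairs, and from 0.620 to 0.763 between tissues. All pairs share the same models, so these values are descriptive. The 7 cortical pairs with 2A of bat 7 spanned 0.846 to 0.963, and without that library the lowest cortical pair was 0.927. The order of levels was thus shared most loosely by 2A of bat 7.

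The first area comparison asked whether auditory cortex differs from the 3 motor areas. It was made with edgeR's quasi-likelihood test on 28713 models that passed the filter on low counts, the 100 among them, with Benjamini-Hochberg adjustment and a threshold of 0.05. None of the 100 was called, and 0.0383% of all tested models were. At an unadjusted p under 0.05 there were 3 of the 100, against 4.16% of all. DESeq2 called 1, against 4.82% of the models it tested. The median log2 difference, 2A minus motor, was -0.04 over the 100 and -0.02 over all.

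mRNA42658 had the smallest p of the 100 models in that comparison. It stood at 75.7 and 46.4 CPM in 2A of bat 6 and bat 7, below all 6 motor libraries, which ran from 93.8 CPM in PreM of bat 7 to 152 CPM in ofM1 of bat 7. The fitted log2 difference was -0.86 ± 0.26 (SE), with an unadjusted p of 0.0118 and an adjusted p of 1.00 in edgeR. DESeq2 gave -0.87 with an adjusted p of 0.0419. The groups did not overlap, but DESeq2 was the exception among 24 alternatives, whose adjusted p ran from 0.0419 to 1.00.

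PreM was then compared with the mean of ofM1 and wM1. None of the 100 was called by edgeR, against 0.0348% of all tested, and DESeq2 also called 0, against 2.52%. The median log2 difference was 0.03 over the 100 and 0.00 over all, and 1 model of the 100 had an unadjusted p under 0.05, against 1.63% of all. This was mRNA14700, at 55.9 and 56.5 CPM in PreM against 126 and 93.0 CPM in ofM1 and 150 and 92.8 CPM in wM1. Its 2 PreM libraries lay within 1 CPM of each other and under all 6 of the other cortical libraries, where 2A had 124 and 119 CPM. The log2 difference was -1.05 ± 0.41 (SE) with an unadjusted p of 0.0369 and an adjusted p of 1.00 in edgeR.

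Orofacial and wing motor cortex, the third comparison, addressed the face and limb divisions of the same area. edgeR called none of the 100, against 0.0313% of all, with 1 model at an unadjusted p under 0.05, against 0.801%. DESeq2 called 1 of the 100, against 2.82%. This was mRNA24127, chosen here after its values were seen, at 10.6 and 11.1 CPM in ofM1 and 6.93 and 7.31 CPM in wM1 (adjusted p = 0.0234 in DESeq2; log2 difference 0.60 ± 0.42 (SE) with an adjusted p of 1.00 in edgeR). Its adjusted p ran from 0.0234 to 1.00 over 24 alternatives. The smallest edgeR p was that of mRNA27167, whose values are given above, with a log2 difference of 0.80 ± 0.29 (SE), an unadjusted p of 0.0374 and an adjusted p of 1.00.

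Small differences toward ofM1 were common without any call. The log2 difference was positive for 70 of the 100 models, with a median of 0.12, whereas 47.8% of all tested models were positive and their median was 0.00. In bat 6, 54 of the 100 were higher in ofM1, against 36.9% of models of at least 1 CPM, and the median log2 difference of CPM + 1 was 0.02. In bat 7 they were 69, against 53.02%, with a median of 0.23. The counts differed between the animals for all models too, and stood above their background by similar amounts in both. Only 34 were higher in ofM1 in both animals and 11 were lower in both, against 18.96% and 22.2% of models of at least 1 CPM. The lean also depended on single libraries: 50 of the 100 were positive without ofM1 of bat 6, 57 without wM1 of bat 7 and 80 without ofM1 of bat 7, and 75 with RLE scaling.

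The other area differences were also counted by animal, and their patterns were not the same. For PreM over the mean of ofM1 and wM1, 44 of the 100 were higher in bat 6, against 49.4% of the background, and 71 in bat 7, against 42.4%. Higher in both were 36, against 18.7%, and lower in both 21, against 21.7%. For 2A over the mean of the motor areas, 41 were higher in bat 6, against 47.3% of the background, and 36 in bat 7, against 36.6%. Higher in both were 18, against 22.1%, and lower in both 41, against 35.0%. The area with the highest mean was ofM1 for 34 models, PreM for 31, 2A for 28 and wM1 for 7. The same shares over all models were not computed, so nothing is read from these counts. A joint test of any difference among the 4 areas called none of the 100 in edgeR, against 0.0313% of all, with 1 at an unadjusted p under 0.05, against 1.49%, and 0 in DESeq2, against 0.556%.

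Nearly all differences between areas were small. Differences within 2-fold were found for 97 of the 100 models for 2A against motor cortex, 98 for PreM and 97 for ofM1 against wM1. Among all tested models the shares were 69.3%, 78.9% and 81.3%. The ranking leaves out models that are low in any cortical library, so a narrower spread was built into the choice. With 2 animals per area, an adjusted p over the threshold does not show that the areas are alike.

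**Figure D3:**
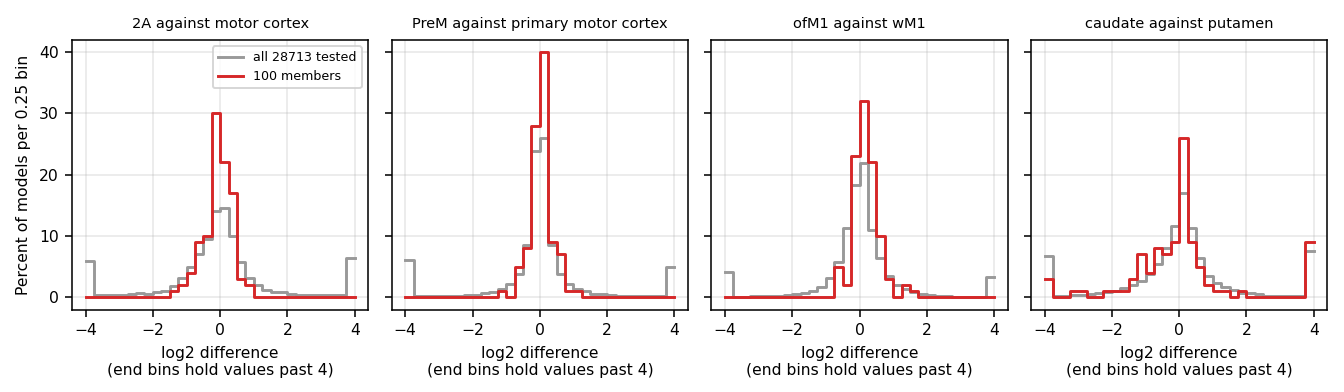
Distributions of fitted log2 differences for the 3 cortical comparisons and for caudate against putamen, as the percent of models per bin of 0.25; grey is all 28713 models tested and red the 100 cortex-enriched models, with values past 4 on either side held in the end bins. The red curves of the cortical comparisons are narrow around 0, with ofM1 against wM1 displaced to the right, whereas caudate against putamen also fills the end bins through models with no read on 1 side.

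Within the striatum, 5 of the 100 models were called between caudate and putamen, against 0.181% of all tested. The ranking used the highest striatal library, not the difference between the 2 striatal regions, though it limits how high either can be. It also favours models that are even in cortex, and the fit took its spread from all 12 libraries. The count is therefore not independent of the choice. Higher in caudate were 4, mRNA17513, mRNA5034, mRNA4277 and mRNA49411, against 0.16% of all tested. Higher in putamen was 1, mRNA28322, against 0.0209%. All were low in striatum, and the last 2 of the caudate models are named because the count is small, after their values were seen.

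mRNA17513 had 4.78 and 8.10 CPM in the caudate of bat 6 and bat 7, which are 327 and 467 estimated reads, and none in either putamen library. Against the floor of 3 reads per putamen library it was at least 103.3-fold higher in caudate (adjusted p = 0.00269 in edgeR). In cortex it was even, at 51.1 ± 5.99 CPM (SD, n = 8). It was also called with the animal as a block (adjusted p = 0.0227), where 1 of the 100 models was called against 0.0488% of all. When models up to 2 numbers apart were summed, its log2 difference fell to 0.17 (adjusted p = 0.960), so models numbered nearby held reads in putamen. Over 23 alternatives its adjusted p ran from 1.04e-10 to 0.960 and was under 0.05 in 21.

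For mRNA28322 the striatal levels given above correspond to 14 and 23 reads in caudate and 137 and 99 in putamen. Putamen was 8.09-fold higher, with a log2 difference, caudate minus putamen, of -3.02 ± 0.36 (SE) and an adjusted p of 0.0328 in edgeR. With the animal as a block the adjusted p was 0.0899, and over 23 alternatives it ran from 7.18e-13 to 0.718 and was under 0.05 in 10. Both regions stayed far below the cortical level, so this is a difference between low values.

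The other 3 were mostly lost by small changes. mRNA5034 had 0.850 and 2.45 CPM in caudate and none in putamen (at least 26.4-fold, adjusted p = 0.0208 in edgeR, 0.0659 with the block). Its like-length neighbour mRNA5035 had 3.17 and 0.706 CPM in putamen, and the log2 difference of their sum was 0.00 (adjusted p = 1.00). mRNA4277 and mRNA49411 had under 1 CPM in caudate and no read in putamen, at least 6.94-fold and 7.85-fold higher (adjusted p = 0.0335 and 0.0487 in edgeR; 0.0770 and 0.0596 with the block). With models up to 2 numbers apart summed, the log2 difference of mRNA4277 fell from 7.63 to 0.48, so models numbered nearby held reads in putamen. That of mRNA49411 stayed at 7.78. Of 23 alternatives, 9, 9 and 4 gave an adjusted p under 0.05 for mRNA5034, mRNA4277 and mRNA49411, with highest values of 1.00, 1.00 and 0.683.

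The spread in this comparison came from all 12 libraries. Fitted on the 4 striatal libraries alone, 79 of the 100 models could be tested and 0 were called by edgeR, as were 0 of all models, with 8 of the 79 at an unadjusted p under 0.05, against 6.07% of all. Leaving out single libraries gave 1 to 18 of the 100. The 18 came without the putamen library of bat 7, and 1 each came without either ofM1, wM1 or PreM library or without the caudate of bat 7. DESeq2 called 21 of the 100, against 8.01% of all. With the sums of like-length neighbours described below, 3 were called, against 0.105% of sums. The median difference over the 100 was 0.00.

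Salmon divides reads that match several similar models among them, so neighbouring numbers with nearly the same length were examined as sets. A set here is a run of consecutive numbers whose lengths differ by at most 10%. Of the 100 models, 28 lay in sets of 2 or more and 72 stood alone, while 40.2% of models of at least 1 CPM lay in sets. A model that stood alone could still have a neighbour of other length, as described further below. The 28 sets held 53 other models, none of which was among the 100, and 32 of the 53 had no read in any library. Whether such neighbours are forms of 1 gene was not tested, since the files do not give gene assignments.

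In 14 of the 28 sets the member held over 95% of both the cortical and the striatal reads. The largest sets had 7 models. In that of mRNA29291 the other 6 models had no read in any library, while mRNA29291 had 162 to 306 CPM in cortex and 9.28 to 18.6 CPM in striatum. In that of mRNA43030, mRNA43027 held a steady 23.3 to 31.8 CPM in 7 cortical libraries and 0 in 2A of bat 7. In that library the 26.2 CPM were on mRNA43026, which had no read in any other cortical library. A zero for a single model was thus not a zero for its set.

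mRNA54137 showed this at the top of the ranking. In 2A of bat 7, mRNA54137 had 39.8 CPM and mRNA54135 had 130 CPM, although mRNA54135 had no read in the other 7 cortical libraries. In PreM of bat 7, mRNA54137 had 59.97 CPM and mRNA54136 had 99.6 CPM. Summed over the set, the cortical libraries ran from 153 to 207 CPM, a 1.36-fold range in place of 4.77-fold for mRNA54137 alone, and the striatal libraries from 0.486 to 1.35 CPM. The uneven cortical levels of this model were therefore levelled by its neighbours, and striatum was no longer at 0.

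In 6 sets the member held under 20% of the striatal reads: those of mRNA54137, mRNA8598, mRNA13454, mRNA44109, mRNA28429 and mRNA11266. mRNA8598 had 17.2 to 70.2 CPM in cortex and no read in striatum, whereas mRNA8599, 64944 bases long beside 64967, had no read in cortex and 0.624 to 1.96 CPM in striatum. mRNA13454 and mRNA13453 divided the same way, at 8.83 to 18.7 CPM in cortex for the first and 0.821 to 2.19 CPM in striatum for the second. These sums stayed far higher in cortex, though the member's striatal zero was not kept.

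For mRNA44109, mRNA28429 and mRNA11266 the sum differed more from the member. mRNA44109 had 87.5 to 154 CPM in cortex and 7.08 to 9.04 CPM in striatum, while mRNA44112 of the same set had 5.36 to 71.0 CPM in cortex and 29.2 to 61.3 CPM in striatum. The ratio was 8.82 for mRNA44109 and 1.74 for the sum. For mRNA28429 it was 4.15 alone and 1.11 for the sum, as mRNA28428 had 2.73 CPM in putamen of bat 7. mRNA11266 had 2.73 to 15.3 CPM in cortex and none in striatum, where mRNA11267 had 1.26 to 7.69 CPM. The ratio of that sum was 0.429, with its highest striatal library above its lowest cortical one. It was the exception among 28 sums, as the other 27 kept every cortical library above every striatal one. Of the 28 sums, 25 had a ratio at least that of the model in place 100.

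**Figure D4:**
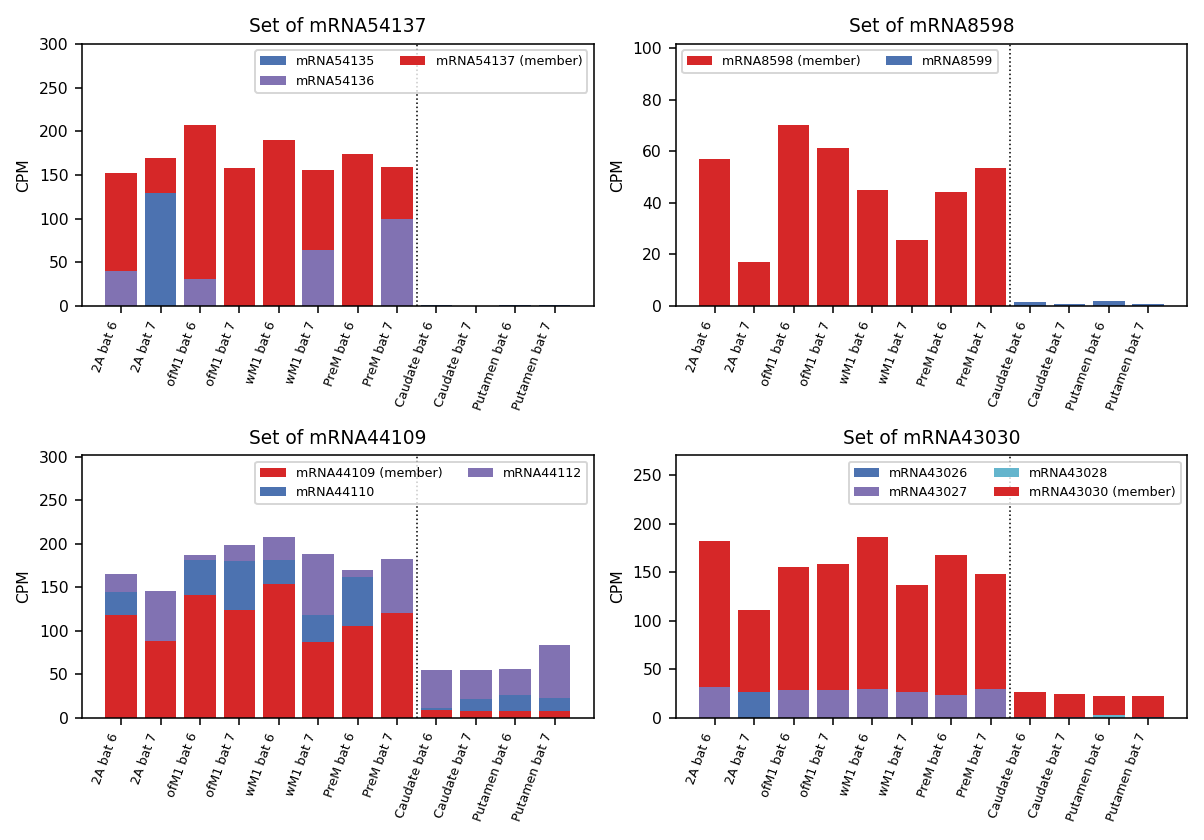
Stacked CPM of the models of 4 neighbour sets in the 12 libraries, cortical left of the dotted line and striatal right of it, with the cortex-enriched member in red and models that reach no more than 0.05 CPM left out. In the set of mRNA54137 the blue and violet neighbours fill up the libraries where the red member is low, and in the set of mRNA44109 most striatal reads lie on neighbours rather than the member.

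Models next in number but of other length tell about the surroundings of the 100 models. There were 143 such neighbours that were not among the 100, and 77 of them were tested. Their median log2 difference, cortex minus striatum, was 0.68, against 0.03 over all tested models. It was positive for 53 of the 77, against 51.5% of all tested models. Called by edgeR were 9 higher in cortex and 3 higher in striatum, where 2.57% and 2.32% of all tested models were called. The 12 tested neighbours of like length had a median of 0.16, with 1 called higher in cortex and 3 higher in striatum. That median lies between widely spread values, from -10.7 for mRNA11267 to 13.5 for mRNA54136. Of the 12, 6 were over 2-fold higher in cortex, against 20.9% of all tested models. The neighbours named here, all of other length, were chosen after their values were seen. mRNA52025 had means of 210.2 CPM in cortex and 5298 CPM in striatum beside the cortex-enriched mRNA52024, and mRNA31979 had 282 and 69.4 CPM beside mRNA31978. mRNA2214 had 0 and 15.9 CPM beside mRNA2213, and mRNA46400 had 0 and 8.24 CPM beside mRNA46401. Neighbours with reads in striatum only were thus not limited to the like-length sets.

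Some members lay close to each other in number. In 9 pairs, 2 of the 100 models were at most 5 numbers apart, which took in 18 models. No such count was made for other models, so it is not read as a trait of the 100. mRNA11897 and mRNA11898 were adjacent and of unequal length, 8398 and 3661 bases, and moved alike over the cortex: the first had 38.2 and 22.3 CPM in 2A of bat 6 and bat 7 and 30.0 and 14.2 CPM in ofM1, the second 29.9 and 22.2 CPM in 2A and 29.6 and 12.7 CPM in ofM1. mRNA17785 and mRNA17788, 3 numbers apart, were both lower in bat 7 in 2A, at 628 against 1110.4 CPM and at 34.7 against 161 CPM, but parted in PreM. There bat 7 was at 1019 against 857 CPM for the first and at 132 against 198 CPM for the second. mRNA28425 and mRNA28429, 4 apart, were also both lower in bat 7 in 2A. They stood there at 153 against 205 CPM and at 3.15 against 33.9 CPM.

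To see how far the choice carried from 1 animal to the other, 100 models were chosen anew in each bat by the same ratio. Of those chosen in bat 7, 84 had every cortical library above every striatal library in bat 6, against 31.1% of models of at least 1 CPM there. The median ratio was 7.77 in bat 7 and 5.59 in bat 6. Of those chosen in bat 6, 23 were so separated in bat 7, against 9.63%, and the median ratio was 30.4 in bat 6 and 0.196 in bat 7. The 2 lists shared 17 models, and the 100 described here took in 19 of the bat 6 list and 70 of the bat 7 list.

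The 77 models chosen in bat 6 that were not separated in bat 7 had few striatal reads in bat 6. No read was assigned to 74 of them in either striatal library of bat 6. In bat 7, 46 had over 10 CPM in putamen, and 60 had no read in at least 1 cortical library. Like-length sets held 55 of the 77. When the sums of sets were ranked in place of single models, 44 of 100 chosen in bat 6 were separated in bat 7, against 11.1%, and 97 of 100 chosen in bat 7 were separated in bat 6, against 34.1%. Sums carried over more often than single models in both directions.

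**Figure D5:**
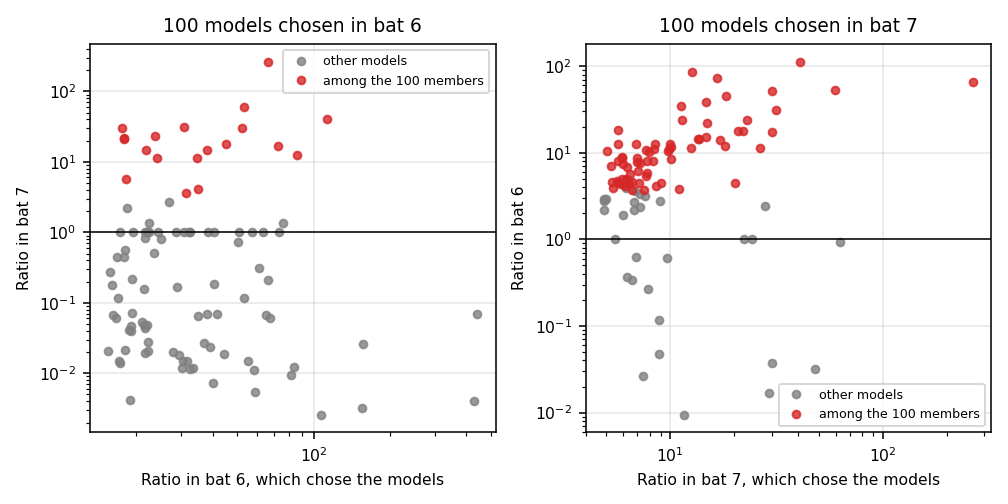
Ratio of the lowest cortical to the highest striatal CPM, each plus 1, in the animal that chose the models (horizontal, log axis) and in the other animal (vertical, log axis), with the 100 models chosen in bat 6 at the left and those chosen in bat 7 at the right. Points above the line at 1 have every cortical library above every striatal library in the other animal, 23 at the left and 84 at the right; red points are the 19 and 70 that are among the 100 models described.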

How the data were processed

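RNA was quantified with Salmon 1.5.2, per the submitters' processing notes; no source used here gives the annotation behind the model numbers. The deposited files give estimated counts and TPM by the authors for each model, and CPM were computed from the counts. Counts were rounded and tested with edgeR 4.0.16 (filterByExpr, TMM scaling, glmQLFit and glmQLFTest, 2-sided, R 4.3.3) on all 12 libraries with the region as factor, Benjamini-Hochberg adjusted over all models tested. The SE of a log2 difference is its size over the square root of F. Where a group had no read, the fold was computed with 3 reads in each of its libraries and is a lower bound that covers counting error only.

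Both animals gave all 6 regions, so the animal numbers pair the libraries; differences between the bats correlated between regions with r of -0.384 to 0.365 (median 0.0729, 7 of 15 above 0.1). The p-values of the main fit measure the spread between the 2 libraries of a region, 1 per animal, shared over the 6 regions. That fit left out the pairing and treated the libraries of an animal as independent, so it does not measure variation among animals at large. The models and lists were chosen with earlier results of these data known. Named models are the 5 highest ratios, the smallest p per comparison or up to 3 called, the 3 highest cortical CPM, the 3 most and least even, the 3 largest sets and those at the border; others are marked or belong to neighbour sets and pairs. Alternatives were DESeq2 1.42.0, RLE scaling, no filter, an effective length offset, only the regions compared, the block, left-out libraries, other neighbour sums and other ranking rules. The main edgeR fit was tested on simulated data, and the outcome is not given here. No such test is reported for the joint test of the areas, DESeq2, RLE scaling, the offset, the block or the neighbour sums. The 20 open chromatin libraries were not used.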

Additional observations from a re-analysis of the deposited data

Results flagged for a closer look

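For 23 models, 46 groups (4 striatal or 8 cortical libraries each) were checked for a single library far from the rest of its tissue. Such a library was found in 6 of the 46 groups, and chance gives about 1 in 20 groups. That rate is for libraries that vary alike, whereas the cortical groups pool 4 areas and some striatal groups hold zeros, so the count is a description. mRNA17785 had 11.92 CPM in the putamen of bat 6, and mRNA14700 had 0.942 CPM there, below the other striatal libraries. mRNA57126 had 826.9 CPM in 2A of bat 7, above all other cortical libraries. In the putamen of bat 7, mRNA32830 had 8.225 CPM, where the other 3 striatal libraries had no read, and mRNA57214 had 2.921 CPM. mRNA29301 had 1.301 CPM in the caudate of bat 7, below the others. The source of these values was not tested.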

How the results depend on the processing

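The counts of 0 for the cortical comparisons were kept under all alternatives run except DESeq2, which called 1 of the 100 for 2A against motor cortex and 1 for ofM1 against wM1. With the replicate block, the counts stayed at 0 for the 4 cortical comparisons. For caudate against putamen, where 5 were called, the count was 21 with DESeq2, 1 with the replicate block, 0 with only the striatal libraries, 3 with neighbour sums (also at 5% and 20% length limits), 2 with sums of numbers up to 2 apart, 1 with sums and the block, and 1 to 18 with single libraries left out. Its log2 difference for mRNA5034 reversed to -0.0111 with sums at 20% and to -0.054 with numbers up to 2 apart. Over all models, calls for the cortical comparisons ran from 0 to 1675, 874, 979 and 193 (2A, PreM, ofM1 against wM1, joint), with DESeq2 highest, and for caudate against putamen from 0 to 2784. Of the 100 models, 64 were also chosen by TPM, 30 by means, 19 in bat 6 alone, 61 without both putamen libraries and 2A of bat 7, and 80 to 99 with single libraries left out. With a 20% length limit 47 lay in sets. Of models chosen in bat 6, 12 were separated in bat 7 with a pseudocount of 0.1 CPM, 47 with 5 CPM, 44 as sums, 37 without putamen and 45 without 2A and putamen; the background was 9.63% of models as reported, 11.1% for sums, 21.2% without putamen and 34.1% without both. The cause of these changes was not tested. Alternatives with sums and the block, held-out sums, held-out regions, and membership without both putamen libraries and 2A of bat 7 were chosen after seeing the data. Caudate against putamen could not be fitted without both putamen libraries. For the 14 models with no read in striatum, depth sets the lower bound of the fold.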
